A study of Oryctolagus cuniculus with 6 samples.

Results

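The genes GATA2, GATA3 and TFAP2A were followed in rabbit blastocysts from embryos that had been cryopreserved and transferred. A probe was taken for these genes where its gene name, description or accessions on the array gave one of the 3 genes, whatever its signal. These are 3 of the 9714 genes that could be named on the array, and they hold 4 of its 43603 non-control probes, 2 for GATA2 and 1 each for GATA3 and TFAP2A. All 4 were well above background in both channels on all 6 arrays, and none was saturated or flagged.

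All embryos were 6-day-old blastocysts of the New Zealand White rabbit, measured as bulk total RNA on Agilent arrays that carry 2 dye-labelled samples each. The vitrified group (3 arrays) came from embryos plunged into liquid nitrogen after a solution of 20% dimethyl sulphoxide (DMSO) and 20% ethylene glycol, a procedure meant to cool without ice. The frozen group (3 arrays) came from embryos cooled at 0.3 °C per minute in 1.5 M DMSO with ice seeded by hand. Both groups were then transferred to recipient females and collected as viable embryos, while the untreated controls developed in vivo, so cryopreservation and transfer cannot be told apart in any comparison with the controls. An array carried 1 treated and 1 control extract, and arrays with the same replicate number carry the same control name in both groups, so the comparisons share their controls. The treated extract carried Cy5 in replicates 1 and 3 and Cy3 in replicate 2. The labels call the extracts biological replicates and do not state how many embryos went into each.

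The trophectoderm is the outer epithelium of the blastocyst and the source of the trophoblast of the placenta. GATA2 and GATA3 are zinc finger transcription factors that bind the GATA motif, and TFAP2A is a transcription factor of the AP-2 family. In mouse and human, GATA2, GATA3 and AP-2 proteins act in trophoblast, where they bind control elements of trophoblast genes. GATA2 is also known from blood progenitors, endothelium and, in mouse and human, the progesterone-responsive uterus. In bulk samples of this kind, fewer cells of a type and less RNA per cell cannot be told apart.

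Which RNA each probe reads decides what its values stand for, so the 4 probes are shown 5′ to 3′, with the bases shared by both GATA2 probes in capitals.
GATA2 probe A_04_P003631: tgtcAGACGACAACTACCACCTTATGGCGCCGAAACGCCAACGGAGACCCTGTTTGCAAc
GATA2 probe A_04_P014276: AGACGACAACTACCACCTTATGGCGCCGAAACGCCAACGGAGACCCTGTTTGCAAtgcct
GATA3 probe A_04_P070947: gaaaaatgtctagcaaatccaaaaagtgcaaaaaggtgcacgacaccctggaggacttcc
TFAP2A probe A_04_P059377: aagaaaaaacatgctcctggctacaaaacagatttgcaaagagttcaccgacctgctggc

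The array design places the GATA2 probes at chr9:7432540-7432599 and chr9:7432536-7432595 on the minus strand. It places the GATA3 probe at chr16:12463688-12463747 on the plus strand. The TFAP2A probe is placed at chr12:4123118-4124846 on the minus strand, a span of 1729 bases for a probe of 60 bases, so its bases are split over the genome as at a splice junction. The genome build is not given in the sources used here. Whether each probe lies in a coding exon or an untranslated region was not looked up. The GATA2 probes overlap by 56 bases, share an unbroken run of 55 and differ by C60T, counted from 1 at the 5′ end of A_04_P003631. They read the same stretch of RNA and count as 1 measurement of GATA2, given below by the brighter probe, A_04_P003631. The design's description of this transcript calls it a uterine GATA-4 factor, but its gene number, 100008832, is GATA2 in the rabbit gene table of NCBI's RefSeq. GATA4 has a probe and gene number of its own. No other probe on the array shares a run of 16 or more bases with a member probe. Pairing with mRNAs of other family members was not tested.

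By its brighter probe, GATA2 had the highest fitted ratio of the 3 genes in both treatments. In vitrified embryos the other GATA2 probe was fitted at 0.62, below TFAP2A at 0.66. The normalised log2 level of GATA2 in vitrified embryos was 9.73, 9.75 and 9.62 in replicates 1, 2 and 3. On the same arrays its control level was 8.98, 8.70 and 9.56. The treated levels lay close together and above all 3 control levels, with the control of replicate 3 nearly reaching them. The log2 ratio of vitrified over control was 0.74, 1.05 and 0.07, a mean of 0.62 ± 0.51 (SD, n = 3 arrays). In frozen embryos the GATA2 level was 9.62, 9.66 and 9.51, against control levels of 9.31, 8.87 and 9.22. The frozen levels did not overlap with their controls either, and the ratios were 0.31, 0.79 and 0.29, a mean of 0.46 ± 0.29 (SD, n = 3 arrays). The overlapping probe A_04_P014276 gave ratios of 0.74, 0.92 and -0.02 in vitrified and 0.34, 0.66 and 0.41 in frozen embryos, so its vitrified replicate 3 lay just on the other side of 0.

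TFAP2A was high in vitrified embryos on the same arrays as GATA2. Its level was 10.59, 10.56 and 10.57 in vitrified embryos and 9.72, 9.73 and 10.48 in their controls. The vitrified values lay within 0.03 of each other, and the control of replicate 3 again came close to them. The TFAP2A ratio was therefore 0.87 and 0.83 in replicates 1 and 2 and 0.10 in replicate 3. Frozen embryos had TFAP2A levels of 10.16, 10.33 and 10.29, above the control levels of 10.10, 9.81 and 10.03. The frozen ratios of TFAP2A were 0.06, 0.52 and 0.26, with replicate 1 close to its control.

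GATA3 followed another order. Its level was 11.44, 11.11 and 11.14 in vitrified embryos and 11.19, 10.99 and 11.11 in the controls, so the groups overlapped. The vitrified ratios of GATA3 were 0.25, 0.12 and 0.03. In frozen embryos the GATA3 level was 11.16, 11.41 and 11.41, above the control levels of 11.07, 10.89 and 10.66. The frozen ratios of GATA3 were 0.09, 0.51 and 0.75, near 0 in replicate 1 and highest in replicate 3, where GATA2 and TFAP2A were at 0.29 and 0.26.

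**Figure D1:**
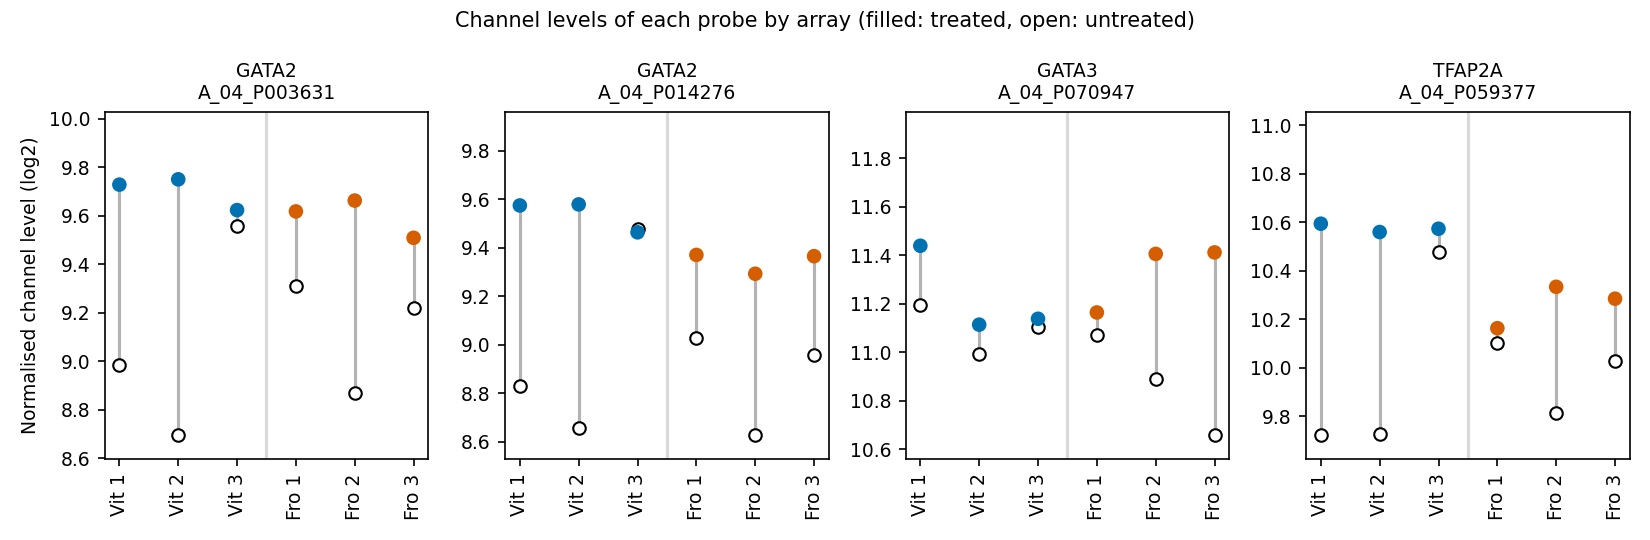
Normalised log2 channel level (y axis) of each probe on each array (x axis, Vit for vitrified and Fro for frozen with the replicate number), filled for the treated and open for the untreated channel, with a line joining the channels of 1 array. GATA2 and TFAP2A control levels vary more than their treated levels, and the vitrified replicate 3 control lies just under the treated level, or just over it for GATA2 probe A_04_P014276.

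The ratios of all 3 genes were above 0 on 6 of 6 arrays, which 5.54% of the tested probes were. Taken by group, 20.4% of probes were above 0 on all 3 vitrified arrays and 15.7% on all 3 frozen arrays. Every treated level lay above every control level for GATA2 and TFAP2A in the vitrified group, as for 9.02% of probes. In the frozen group this held for GATA2, GATA3 and TFAP2A, as for 6.82% of probes. By the other GATA2 probe, A_04_P014276, ratios were above 0 on 5 of 6 arrays, and vitrified and control levels overlapped. Over all 6 treated and 6 control channels together, none of the 4 probes kept the groups apart, and 0.553% of probes did. The sign of the ratio depended on the dye correction on the dye-swapped arrays. The mean spot intensity of GATA2 before correction was 453 in vitrified and 650 in control RNA in replicate 2, and 580 in frozen and 624 in control RNA. With the treated extract in Cy5, the uncorrected GATA2 intensity was 1683 and 853 in vitrified replicates 1 and 3, against 313 and 446 in the controls. The scanner software's own dye-corrected log10 ratio, turned to log2, gave GATA2 0.91, 1.20 and 0.03 in vitrified and 0.36, 0.94 and 0.32 in frozen embryos.

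The first comparison asked how vitrified and transferred embryos differed from untreated ones. The dye swap fell on replicate 2 in both groups, so a dye term cannot be told apart from that replicate and its control. With this term, limma put GATA2 0.72 ± 0.14 higher in vitrified embryos (log2, SE, 95% interval 0.40 to 1.04, n = 3 arrays). This was a ratio of 1.64, with an adjusted p of 0.144. Without the term GATA2 was at 0.62 (adjusted p = 0.283 in limma). TFAP2A with the term was at 0.66 ± 0.15, a ratio of 1.58, with an adjusted p of 0.161 in limma. GATA3 was at 0.14 ± 0.14, with an interval from -0.18 to 0.46 and an adjusted p of 0.637 in limma. None of the 4 probes passed an adjusted p of 0.05, which 0.0195% of the tested probes did. At an unadjusted p under 0.05, both GATA2 probes and TFAP2A passed, 3 of 4 probes but 2 of 3 genes. This stood beside 17.4% of all probes in either direction and 9.99% upward. Of all tested probes, 1.01% had a value at or above that of GATA2, 1.30% at or above that of TFAP2A and 24.5% at or above that of GATA3. Other ways to weigh or fit the arrays changed these calls: GATA2 and TFAP2A passed with array weights (adjusted p = 0.0250 and 0.0318) and in a fit of the separate channels (0.0122 and 0.0144), while these settings called 1333 and 2363 probes instead of 6.

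The second comparison set frozen and transferred embryos against untreated ones. GATA2 was 0.56 ± 0.14 higher in frozen embryos (log2, SE, interval 0.24 to 0.88, n = 3 arrays), a ratio of 1.47, with an adjusted p of 0.168 in limma. GATA3 was at 0.46 ± 0.14 (interval 0.14 to 0.78), a ratio of 1.38, with an adjusted p of 0.224. TFAP2A was at 0.34 ± 0.15, with an interval from -0.01 to 0.69 and an adjusted p of 0.392. Again none of the 4 probes passed, beside 0.185% of all probes and 0.0878% upward. The GATA2 probes and GATA3, 2 of 3 genes, passed at an unadjusted p under 0.05, beside 13.2% of all probes and 6.06% upward. With array weights GATA2 and GATA3 passed (adjusted p = 0.0135 and 0.0126), and in the fit of the separate channels GATA2 did (0.0200), where 3880 and 863 probes were called instead of 57.

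**Figure D2:**
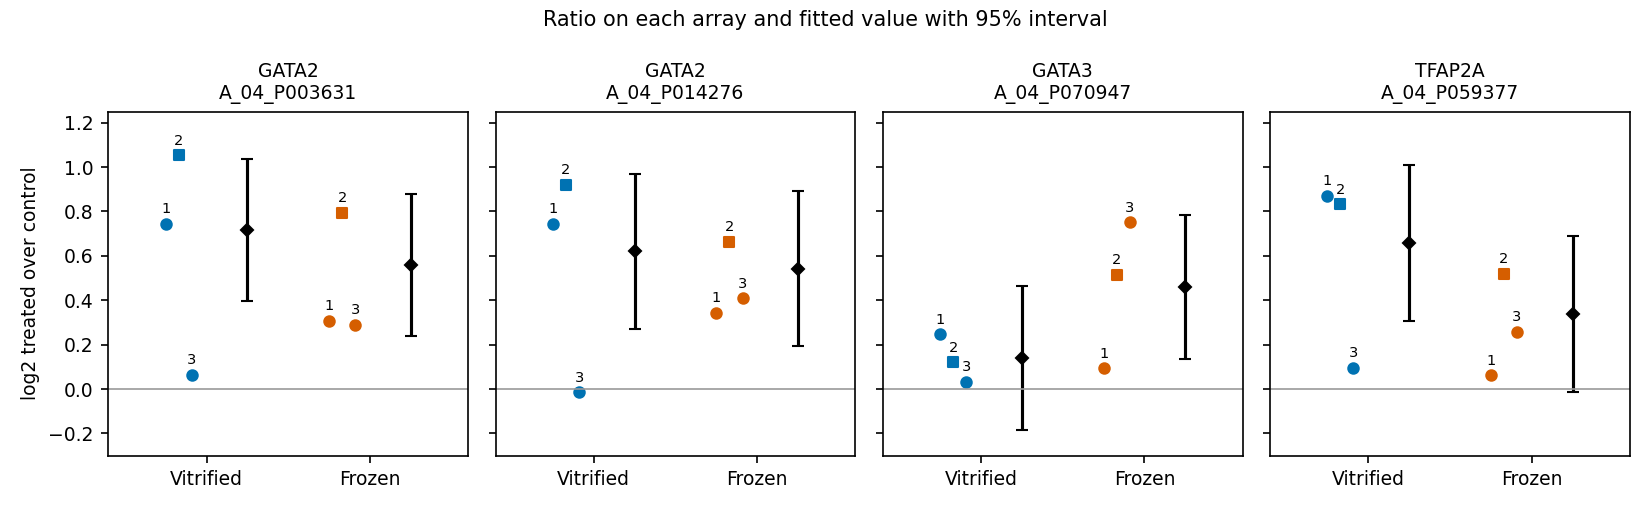
Log2 ratio of treated over control (y axis) of each probe on each array, blue for vitrified and orange for frozen, numbered by replicate, with circles for the treated extract in Cy5 and squares for Cy3. Black diamonds with bars are the fitted value and its 95% interval, which cross 0 for GATA3 in vitrified and TFAP2A in frozen embryos.

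Averaged over both treatments, GATA2 rose by 0.64 ± 0.10 (log2, SE, interval 0.40 to 0.87, n = 6 arrays with 3 control extracts), a ratio of 1.56, with an adjusted p of 0.0491 in limma. This was the only call among the 4 probes, in a comparison where 0.588% of probes passed and 0.406% passed upward. The overlapping GATA2 probe, at 0.58, had an adjusted p of 0.0707. TFAP2A was at 0.50 ± 0.11 (adjusted p = 0.0802) and GATA3 at 0.30 ± 0.10 (adjusted p = 0.152). All 4 probes, for 3 genes, passed at an unadjusted p under 0.05, beside 21.7% of all probes and 11.3% upward. The GATA2 call lay at the threshold and was lost in 12 of 21 alternatives, including the fit without the dye term (0.54, adjusted p = 0.101). The call was also lost without vitrified replicate 1 (0.57, adjusted p = 0.0537) or frozen replicate 3 (0.63, adjusted p = 0.126). It was lost without vitrified replicate 2 (0.60) or frozen replicate 2 (0.68), where 1 Cy3 array alone sets the dye term. TFAP2A passed without vitrified replicate 3 (0.58, adjusted p = 0.0435). With the replicate number as a block, 428 probes passed in place of 181, GATA2 among them (adjusted p = 0.0346). That block had a correlation below 0 (-0.103) and narrowed the SE of GATA2 to 0.095, so it does not allow for shared controls. The main fit took the 6 arrays as independent.

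The direct comparison of the methods asked whether vitrification and slow freezing left different levels. No member differed in limma, and none passed at an unadjusted p under 0.05, which 7.54% of probes did, 4.06% upward. No probe on the array passed after adjustment in limma, where 2320 passed at an unadjusted p under 0.05, and array weights and the fit of the separate channels called 89 and 81. GATA2 differed by 0.16 (vitrified minus frozen, interval -0.28 to 0.60, adjusted p = 0.884). TFAP2A differed by 0.32 (-0.16 to 0.80, adjusted p = 0.770) and GATA3 by -0.32 (-0.76 to 0.12, adjusted p = 0.749). The intervals hold differences of either sign, so these values do not show that the methods left the same levels. In the treated channels alone, TFAP2A ranged from 10.56 to 10.59 in vitrified and from 10.16 to 10.33 in frozen embryos, on different arrays, and this difference of levels was not tested by itself. The treated levels of GATA3 overlapped between the methods, as did those of GATA2 by the brighter probe. By the other GATA2 probe, A_04_P014276, they ranged from 9.46 to 9.58 in vitrified and from 9.29 to 9.37 in frozen embryos. These did not overlap, and this difference was not tested by itself either.

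The control channels carried much of the spread. Over the 6 arrays GATA2 levels spanned 0.24 in treated and 0.86 in control channels, and 1.02% of probes had a ratio of these ranges as high or higher. The same ranges were 0.43 and 0.75 for TFAP2A and 0.33 and 0.53 for GATA3, beside medians of 0.50 in both kinds of channel over all probes. The control of each replicate was measured on 2 arrays under 1 name. The GATA2 control level on the vitrified array minus that on the frozen array was -0.33, -0.17 and 0.34 for replicates 1, 2 and 3. For TFAP2A this difference was -0.38, -0.09 and 0.45, and for GATA3 it was 0.12, 0.10 and 0.45. The median size of this difference over all probes was 0.143, 0.168 and 0.220. The size of this difference exceeded the ratio on the frozen array in replicate 1 for all 3 genes and in replicate 3 for GATA2 and TFAP2A. In replicate 3 it also exceeded the ratio on the vitrified array for all 3 genes. Slide 1 held 1 vitrified and 2 frozen arrays and slide 2 held 2 vitrified and 1 frozen array, so some values within a slide are those of a single array. GATA2 was at 0.74 in vitrified and 0.55 in frozen embryos within slide 1, and at 0.56 and 0.29 within slide 2. TFAP2A was at 0.87 and 0.29 within slide 1 and at 0.46 and 0.26 within slide 2. GATA3 was at 0.25 and 0.30 within slide 1 and at 0.08 and 0.75 within slide 2.

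Transcripts known from other tissues were measured beside the members. Of 14 listed genes of the uterine epithelium, 7 were tested, and 0 were called in vitrified or frozen embryos. SPP1, osteopontin, was well above background in 6 of 6 treated and 0 of 6 control channels, so it was tested only through the group where it was high. Of the other 6, 5 were above 0 in vitrified and 5 in frozen embryos, with medians of 0.70 and 0.13. The summed level of the 7 genes (log2) was 12.21 to 12.93 in vitrified embryos and 11.17 to 11.92 in their controls, and 10.91 to 12.18 in frozen embryos and 10.89 to 11.77 in theirs. SCGB1A1, the uteroglobin that the rabbit endometrium secretes before implantation, had log2 ratios of 2.53, 2.52 and 0.55 in vitrified and 1.25, 2.00 and 0.78 in frozen embryos. SCGB1A1 rose by 1.77 averaged over both treatments (adjusted p = 0.0431 in limma). In the control channels the level of SCGB1A1 was at most 8.20 and that of SPP1 at most 6.77. Other genes of the list therefore make up most of the control sums. SCGB1A1 was lowest in vitrified replicate 3 and frozen replicate 3. GATA2 was lowest in vitrified replicate 3 by both probes, and in frozen embryos in replicate 3 by the brighter probe (0.29 against 0.31 in replicate 1) but in replicate 1 by the other (0.34 against 0.41). WFDC2, a secreted protein of the genital tract epithelium, had another order, with -0.08, 1.80 and 0.91 in vitrified and 0.38, 0.79 and -0.80 in frozen embryos. SCGB1A1 was named because it moved with GATA2, so their likeness is a description of a chosen gene. PGR, the progesterone receptor, was well above background in 4 of 6 treated and 2 of 6 control channels, with ratios of 0.15, 0.03 and 0.02 in vitrified and -0.14, -0.02 and 0.24 in frozen embryos. MUC1 had no probe with that symbol. The part of uterine RNA in the GATA2 and TFAP2A values was not tested.

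Globin transcripts had other orders over the arrays. HBA, an alpha globin, had ratios of 2.27, 2.43 and 2.52 in vitrified and 2.33, 0.47 and 0.53 in frozen embryos, and rose by 1.68 averaged over both (adjusted p = 0.0436 in limma). HBA was high in vitrified replicate 3 and frozen replicate 1, where GATA2 was at 0.07 and 0.31. Of 10 tested genes of the blood list, 7 were above 0 in vitrified embryos with a median of 0.13, and 6 in frozen embryos with a median of 0.06. Their summed level was 13.99 to 17.32 in vitrified embryos against 12.35 to 13.64 in the controls. It was 12.45 to 15.35 in frozen embryos against 12.001 to 12.45. The highest treated levels of HBB2 and HBA were 16.98 and 14.99, so the top of these sums is largely globin. The leukocyte markers PTPRC and CD3E were well above background in 0 of the 12 channels, but CD4 and CD8A were so in 6 of 6 treated and 6 of 6 control channels, CD14 in 6 and 5 and CD68 in 5 and 5. CD4 was at -0.34 in vitrified and -0.40 in frozen embryos. The part of blood RNA in the members' values was not tested.

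**Figure D3:**
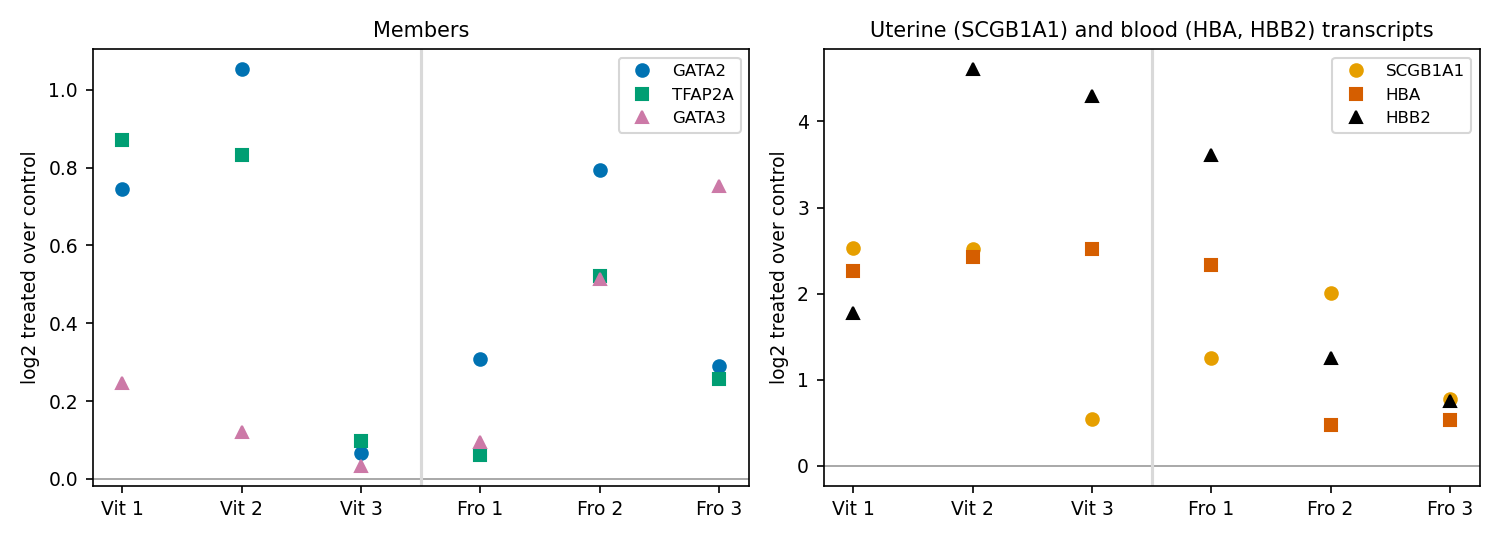
Log2 ratio of treated over control (y axes, different scales) on each array (x axis) for the members on the left and for SCGB1A1, HBA and HBB2 on the right. GATA2 and SCGB1A1 are both lowest in vitrified replicate 3, while HBA is highest there. GATA2 and HBB2 are both highest in vitrified replicate 2. SCGB1A1 was named because it moved with GATA2.

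Neither the members nor the other listed trophectoderm genes passed the test in vitrified or frozen embryos. Of the 8141 tested genes, 1 passed in vitrified and 17 in frozen embryos. Of 20 further regulators, 11 were tested. In vitrified embryos 6 of the 11 were above 0 with a median of 0.01 and a range from -0.11 to 0.19, beside a median of -0.004 over the 8141 tested genes, of which 49.1% were above 0. In frozen embryos 6 of the 11 were above 0 with a median of 0.11, beside -0.003 over all genes. Averaged over both treatments, where GATA2 was called, 8 of the 11 were above 0 with a median of 0.08, and 0 were called. The smallest p-values in vitrified embryos belonged to the homeobox factors MSX2 (0.19) and DLX3 (0.12) and to HAND1 (0.19), a regulator of trophoblast giant cells in mouse. In frozen embryos they belonged to TFAP2C (0.27), the secreted factor BMP4 (-0.29) and ESRRB (0.51), a nuclear receptor needed in mouse trophoblast stem cells. CDX2, EOMES and TEAD4 had no probe with that symbol.

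Of the 16 tested epithelial genes of the trophectoderm, 9 were above 0 in vitrified embryos with a median of 0.07. In frozen embryos 14 were, with a median of 0.19. Averaged over both treatments, 13 of the 16 were above 0, with a median of 0.09, and 0 were called. The highest of these averages was 0.71, beside 0.64 for GATA2. At an unadjusted p under 0.05 in limma, 5 of the 16 passed upward, beside 9.69% of all genes. ATP1B1, the sodium pump subunit on which the filling of the blastocoel relies, was at 0.39 in vitrified and 0.41 in frozen embryos (adjusted p = 0.230 and 0.266 in limma). ENPEP, a cell surface aminopeptidase, was at 0.60 and 0.82. EZR, the microvillus protein ezrin, was at -0.39 and -0.01. Of 5 tested trophoblast products, 4 were above 0 in vitrified and 4 in frozen embryos, with medians of 0.27 and 0.09. Among these, the folate receptor FOLR1 was at 0.42 and 0.11, and the steroid transport protein STAR at 0.27 and 0.14. PTGS2, a prostaglandin synthase, was at 0.47 and -0.85.

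The relatives and partners of the members did not pass the test either. GATA4, a GATA factor of the endoderm and heart, was at 0.24 in vitrified and -0.23 in frozen embryos, and 3 of 4 tested GATA relatives and partners were above 0 in vitrified and 1 of 4 in frozen embryos (medians 0.02 and -0.02). TFAP2C, the AP-2 factor most studied in mouse trophectoderm, was at -0.05 in vitrified and 0.27 in frozen embryos (adjusted p = 0.842 and 0.313 in limma). Its frozen ratios were 0.53, 0.03 and 0.38, highest in replicate 1, where TFAP2A was lowest. Of 3 tested AP-2 relatives and partners, 2 were above 0 in each treatment (medians 0.12 and 0.01), among them CITED4, a coactivator partner of AP-2 proteins, at 0.12 and 0.01.

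The Hippo pathway sets trophectoderm fate in the mouse through YAP1 and TEAD4. Of its 11 tested genes, 3 were above 0 in vitrified embryos with a median of -0.10, and 7 in frozen embryos with a median of 0.01, with 0 called. The kinase LATS1, which restrains YAP1, was at -0.31 in vitrified and -0.14 in frozen embryos, and CCN1, a target of YAP1, was at -0.40 and 0.01.

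KRT8, KRT19, TFAP2C and ATP1B1 were well above background in all 12 channels, as were POU5F1 and DPPA5 of the epiblast and APOA1 of the hypoblast. Markers listed for trophectoderm, epiblast and hypoblast were thus detected. The other hypoblast markers looked for, SOX17, GATA6, PDGFRA and FOXA2, had no probe with that symbol. Of 9 tested hypoblast and yolk sac genes, 1 was above 0 in frozen embryos, with a median of -0.82, and 1 passed, APOA2, an apolipoprotein, which fell by 1.00 on the log2 scale (adjusted p = 0.0425 in limma). The summed level of the 9 genes was 13.20 to 13.59 in frozen embryos and 13.89 to 14.64 in their controls. In vitrified embryos 2 of the 9 were above 0, with a median of -0.09 and summed levels of 13.68 to 14.67 against 14.26 to 14.81. Of 8 tested epiblast genes, 5 were above 0 in vitrified and 4 in frozen embryos, with medians of 0.02 and -0.04. POU5F1, the pluripotency factor, was at -0.09 in vitrified and -0.82 in frozen embryos (adjusted p = 0.867 and 0.191). Both tested genes of the amnion and surface ectoderm list were below 0, TBX3 at -0.34 and HEY1 at -0.03 in vitrified and at -0.61 and -0.17 in frozen embryos. The share of hypoblast cells was not measured, and its part in the members' frozen values was not tested.

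**Figure D4:**
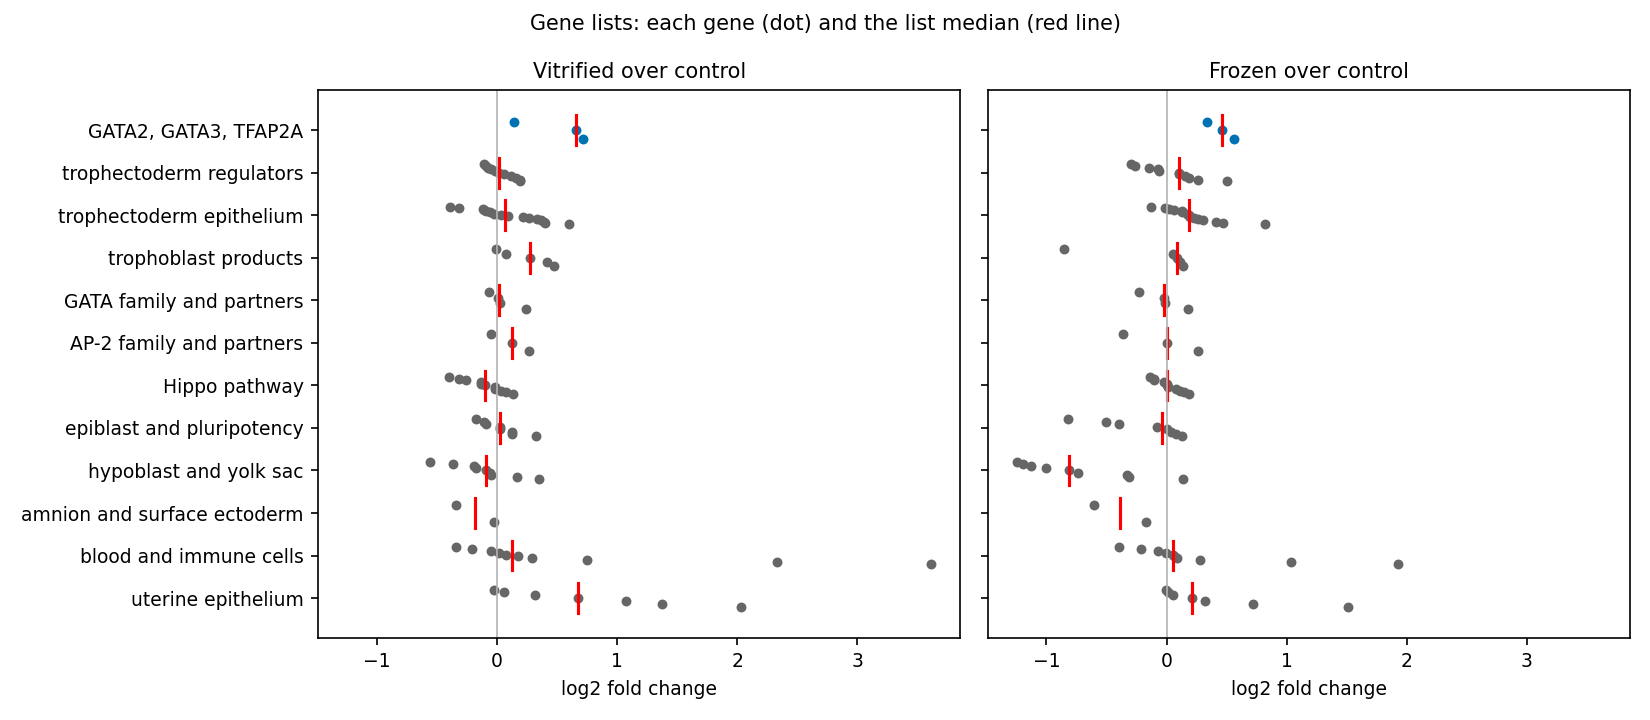
Log2 fold change (x axis) of each tested gene (dot) by gene list (y axis) in vitrified and frozen embryos, with the list median as a red line and the 3 members in blue on top. The regulators of the trophectoderm centre near 0 in vitrified embryos, where the uterine median is the value of SPP1, and the hypoblast list lies to the left in frozen embryos.

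The genes with the pattern most like each member were taken by the root mean square difference of log2 ratios over the 6 arrays, among 8134 genes. For GATA2 these were ACTN1 (0.0817), AURKC (0.146) and VKORC1 (0.146). TFAP2A stood at 0.183 from GATA2, with 0.0861% of genes as near or nearer. For TFAP2A the nearest were SMTN (0.0770), UBE2C (0.0952) and FBLN2 (0.1004). For GATA3 they were PPP4R3A (0.0992), PDCD11 (0.107) and GLTP (0.120). Seen from TFAP2A, 0.344% of genes were as near as GATA2 or nearer. GATA3 stood at 0.493 from GATA2, with 8.62% of genes as near to GATA2 and 64.5% as near to GATA3. It stood at 0.437 from TFAP2A, with 13.0% of genes as near to TFAP2A and 47.0% as near to GATA3. These distances describe 6 arrays with shared controls and small ratios.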

How the data were processed

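The authors deposited, per channel, the intensity of each spot (mean pixel signal) and of its local background (median), unnormalised per the file headers. Agilent Feature Extraction 10.10.1.1 is named in the submitters' processing notes. The deposited log10 ratio, per the file headers already background-subtracted and dye-normalised, served as an alternative. From the intensities, normexp background correction (offset 50) and loess within each array were run in limma 3.58.1 under R 4.3.3. Flagged spots were left out and spots of a probe were averaged. Channel levels were also scaled between arrays (Aquantile).

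Tests covered the 30766 of 43603 probes that passed the scanner's background flag in 3 or more of 12 channel measurements. A symbol was matched for 21378 probes through gene numbers, accessions and names, with the RefSeq rabbit table; 20694 had none, 1318 a gene number without a symbol and 213 several genes. A gene is given by its brightest probe.

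The ratio was fitted over all 6 arrays with a coefficient per treatment and a dye term, leaving 3 residual degrees of freedom, then eBayes. P-values were adjusted by Benjamini-Hochberg across the 30766 probes and called under 0.05. The spread covers only these extracts, and the number of arrays limits the precision. An exact test of 3 against 3 cannot go below p = 0.1, so none was run. The fit was also run on simulated data with independent arrays, which cannot test the effect of shared controls.

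The members, the 11 gene lists and the tests were chosen with earlier results of these data known. Named genes are the members, the 3 nearest to each by pattern, and the genes of a list that passed or up to 3 with its smallest p-values. The cell markers are also named, as are uterine or blood genes that moved with a member. Genes of this last kind were chosen for their likeness to a member, so that likeness is a description only. A list gene was left out of the text and is not reported here. Arrays with the same number carry the same control name, which pairs them. Their deviations from the group means, taken without the dye term, correlated at 0.0175, 0.594 and 0.165 for replicates 1, 2 and 3. The 0.594 therefore includes the dye swap that only the replicate 2 arrays share. With the dye term, the consensus correlation within replicates was -0.103. Alternatives covered background, normalisation, filter, flags, dye, block, slide, spread, weights, channels, probes, threshold and leaving out each array. Across arrays, 44.7% to 58.0% of spots were well above background in green and 64.2% to 74.5% in red, with at most 11 saturated.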

Additional observations from a re-analysis of the deposited data

How the results depend on the processing

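The values of the members kept their sign under all alternatives run, with 1 exception: the GATA2 difference of vitrified minus frozen was -0.022 without vitrified replicate 1. The number of probes called depended on the processing. The GATA2 call over both treatments was lost with the scanner software's log ratio (0.74), offset 10 (0.69), median centring (0.62), no filter (0.64), all 12 channels above background (0.64), no dye term (0.54), slide as a covariate (0.64) and the mean of both GATA2 probes (0.61).

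Probes called for vitrified, frozen and both treatments were 0, 1 and 3 with the scanner's log ratio and 0, 0 and 41 with the slide term. For frozen and both they were 3 and 71 with offset 10, 33 and 115 with median centring, 8 and 90 with no dye term, and 187 and 1592 at a threshold of 0.1, where TFAP2A over both (0.50) passed. For both treatments 103 were called with no filter. With all 12 channels above background, 0 were called for vitrified and 4 for both. Array weights, 2.10 on both replicate 2 arrays, called 1333, 3880, 89 (vitrified minus frozen) and 5656. They added calls for GATA2 (0.70 vitrified, 0.54 frozen), TFAP2A (0.62 vitrified, 0.49 both) and GATA3 (0.55 frozen, 0.34 both). The separate channel fit called 2363, 863, 81 and 2723, and added GATA2 (0.70 vitrified, 0.57 frozen) and TFAP2A (0.66 vitrified, 0.50 both). The cause of these shifts was not tested.

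With the replicate block (consensus correlation -0.103), 428 probes passed for both treatments, and no call of a member changed: GATA2 was at 0.72, 0.56 and 0.64 for vitrified, frozen and both. Averaging same-numbered arrays, an alternative chosen after seeing the data, called 1874 probes for both, with TFAP2A among them (0.50, adjusted p = 0.0175).

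Leaving out each array gave 0 to 16 probes for vitrified, 0 to 513 for frozen, 0 to 0 for the difference and 1 to 814 for both. GATA2 ranged over 0.56 to 0.90, 0.53 to 0.62, -0.02 to 0.37 and 0.57 to 0.72 in these comparisons. TFAP2A ranged over 0.46 to 0.85, 0.29 to 0.39, 0.10 to 0.54 and 0.42 to 0.58. GATA3 ranged over 0.08 to 0.19, 0.30 to 0.63, -0.52 to -0.14 and 0.23 to 0.37. Leaving out either replicate 2 array leaves 1 Cy3 array, which the dye term then fits exactly. In those fits the dye term comes only from the treatment that kept its replicate 2 array. They do not isolate the influence of the array left out.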
